A study of Xenopus laevis with 6 samples.

Results

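This account describes what activin with retinoic acid (activin/RA) induced and removed in Xenopus laevis animal caps, across the genes of the array. An animal cap is the explanted ectodermal roof of the blastula. All 6 arrays of the series were used, 3 from caps cultured with activin/RA and 3 from untreated caps cultured alone, and each activin/RA array was paired with the untreated array of the same injected morpholino. The 3 pairs carried control MO at 80 ng, ERK3 MO1/2 at 40 ng of each of the 2 oligonucleotides, and ERK3 MO3 at 80 ng. Morpholinos are antisense oligonucleotides that block a chosen transcript, and ERK3 is an atypical MAP kinase. All embryos were injected, in the animal region of every blastomere at the 4-cell stage, so no array shows uninjected tissue. Explants were made at stage 9, collected at stage 15, and each array received material amplified from 250 ng of RNA. Each group was 1 array and the whole was done as 1 experiment, so the p-values speak of the variation among these 6 arrays alone, part of which may be technical. No dose of activin or of retinoic acid and no clutch is given in the labels.

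Activin is a ligand of the TGF-beta family. Through its receptors it activates Smad2 and Smad3, which enter the nucleus and act there with partners such as FoxH1. In the frog embryo Nodal ligands use the same route to induce mesoderm and endoderm. Retinoic acid enters cells, binds RAR/RXR receptors on DNA, and shifts cells towards posterior identities of the trunk. Animal caps cultured alone form epidermis, and caps given activin and retinoic acid together are used to obtain pronephric tissue, the larval kidney. In bulk RNA, fewer cells of a type and less RNA per cell cannot be told apart.

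The members are the 32539 probe sets left after control probe sets were dropped, and 11303 genes once each gene symbol was represented by the probe set with the highest mean. The endings .L and .S name the long and short copies that this tetraploid frog carries of many genes. Values are log2 of the deposited signal, listed in the order control MO, ERK3 MO1/2, ERK3 MO3. A change is the mean of the 3 pair differences, activin/RA minus untreated. Its standard error (SE), where shown, is the moderated one of the limma fit. That SE borrows variance from the other probe sets and is not the plain spread of the 3 pair differences. A gene passed if its limma p-value, with the Benjamini-Hochberg adjustment across the 32539 probe sets, was under 0.05. Levels are not compared between genes, since probes differ in brightness.

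The untreated control MO array stood apart from the other untreated arrays. It correlated at 0.970 with untreated ERK3 MO1/2 and at 0.982 with untreated ERK3 MO3, which correlated with each other at 0.992, while it correlated at 0.970 to 0.975 with the activin/RA arrays. Its score on the first principal component was 14.55, against 76.9 and 60.2 for the other untreated arrays and -41.0 to -67.3 for the activin/RA arrays. Some counts are therefore given with and without the control MO pair, and others only with all pairs. The marker check of the labelled tissue gave summed log2 levels of epidermal markers of 12.74 to 13.61 with activin/RA and 12.16 to 13.69 in untreated caps. Notochord markers summed to 9.41 to 10.09 with activin/RA, against 4.89 to 5.54 in untreated caps, and endoderm markers to 9.69 to 10.26, against 7.34 to 8.14. Pronephros markers summed to 8.96 to 9.48 with activin/RA, against 5.98 to 6.3 in untreated caps, and 5 of these 7 genes never lay above the median of all values. Signals were summed before log2 was taken, so the brightest members weigh most, such as foxa4 and tbxt for notochord. For pronephros that was lhx1.L, at 8.91, 9.25 and 8.65 with activin/RA, which also counts among regulators of mesoderm. Of the 7 pronephros markers 3 passed as higher and 4 did not pass, with a median change of 0.22. Muscle markers stood at 7.1 to 7.41 with activin/RA and 7.71 to 8.06 in untreated caps, and 8 of 10 never lay above the median of all values. None of 7 blood markers lay above that median on any array.

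Across all genes, 1097 (9.71%) passed as higher and 1654 (14.6%) as lower with activin/RA. These shares are the background for the counts of genes that rose or fell with all pairs. Genes whose 3 activin/RA values lay all above or all below the 3 untreated values, here called not overlapping, were 1620 (14.3%) higher and 2189 (19.4%) lower, 33.7% together. These shares cover genes that passed and genes that did not. They are therefore no like measure for genes already picked for passing. A stricter description without a test counted genes that differed at least 2-fold in each of the 3 pairs. It held 215 genes higher (1.9%) and 147 genes lower (1.3%), or 3.2% together, and over probe sets 567 (1.74%) and 392 (1.2%), all of which also passed the test. At 4-fold in every pair 181 probe sets were higher and 79 were lower, so the gains in every pair outnumbered the losses as the size grew. The 3 pairs did not move by equal amounts. At 2-fold, 1017 probe sets were higher and 868 lower in the control MO pair, 1692 and 1568 in the ERK3 MO1/2 pair, and 1210 and 1282 in the ERK3 MO3 pair. The probe sets that passed, 6668 in all, came to 10659 without the control MO pair, 1878 without the ERK3 MO1/2 pair and 2591 without the ERK3 MO3 pair. Over genes, 15.1% passed as higher and 22.3% as lower without the control MO pair, 3.65% and 3.53% without the ERK3 MO1/2 pair, and 4.22% and 4.91% without the ERK3 MO3 pair. Counts of a gene group without a pair are to be read against these shares.

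Genes were ranked by their weakest pair, so that the order rests on what every pair shows. The 15 leading gains were xenf.L, foxa4.S, asmtl.L, lhx1.L, cer1.S, mixer.L, pcdh8.2.L, cdx4.L, wnt8a.L, mix1.S, mix1.L, foxa4.L, flrt3.L, chrd.1.S and il5ra.L. They include regulators of endoderm and mesoderm (mixer, mix1, foxa4, lhx1, cdx4) and secreted factors (cer1, wnt8a, chrd.1). mixer.L, a homeobox gene of endoderm formation, stood at 8.15, 8.52 and 8.13 with activin/RA, against 3.24, 3.09 and 3.33 in untreated caps. Its change was 5.04 ± 0.17 (SE, n = 3 pairs, adjusted p = 1.72e-05), and the cultures lay far apart. chrd.1.S encodes Chordin, the secreted BMP antagonist of the organizer. It stood at 7.76, 7.7 and 7.42 with activin/RA, against 2.74, 2.54 and 3.33 in untreated caps (change 4.76 ± 0.23, SE, n = 3 pairs, adjusted p = 5.5e-05). flrt3.L, a leucine-rich repeat membrane protein that modulates adhesion and FGF signalling, stood at 7.27, 7.8 and 6.81 with activin/RA, against 2.77, 2.6 and 2.71 in untreated caps, and its partner flrt3.S at 6.01, 6.75 and 5.75 with activin/RA, against 2.48, 2.39 and 2.63 in untreated caps. il5ra.L, a cytokine receptor subunit gene, stood at 8.6, 8.31 and 8.72 with activin/RA, against 3.58, 4.26 and 3.99 in untreated caps (adjusted p = 3.99e-05). For lhx1.L, cer1.S and xenf.L other probe sets of the symbol moved less, down to 0.38, 0.97 and 2.67.

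**Figure D1:**
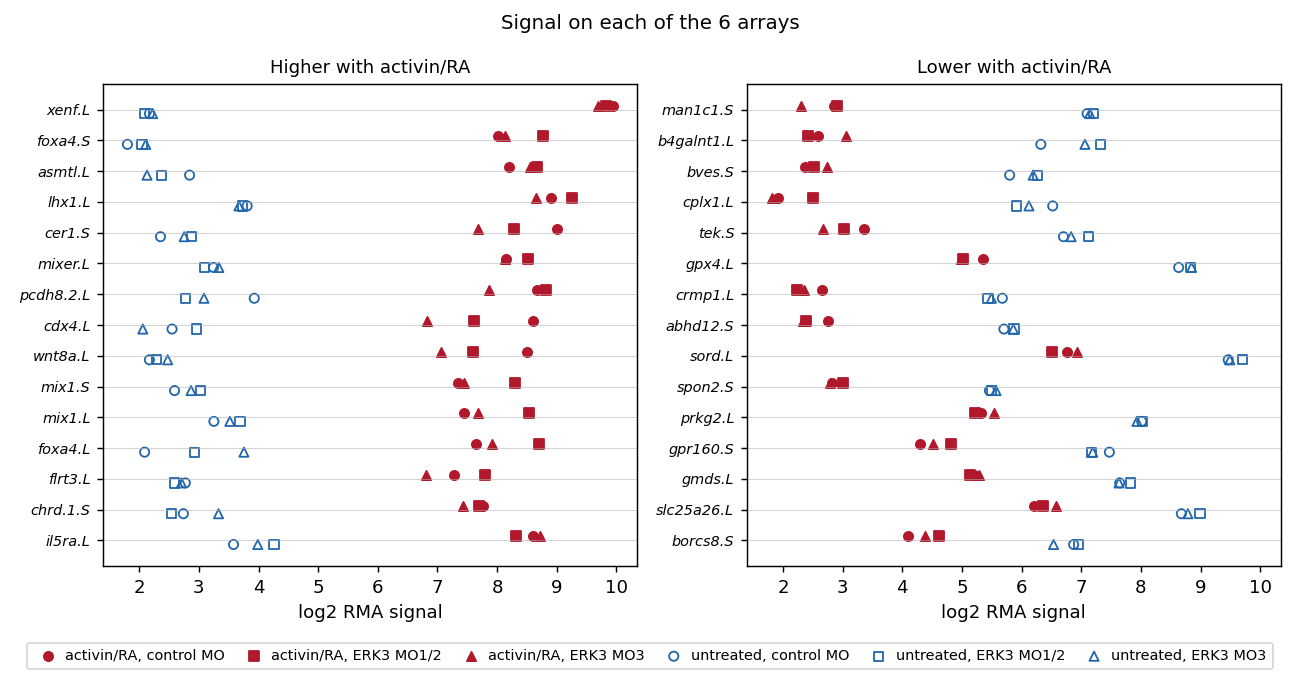
Log2 signal on each of the 6 arrays for the 15 genes higher and the 15 genes lower with activin/RA by weakest pair, with filled symbols for activin/RA and open symbols for untreated caps and 1 symbol shape per morpholino. The filled and open symbols do not overlap for any of the 30 genes, which follows largely from ranking by the weakest pair, and the gap is wider for xenf.L, with a change of 7.66, than for borcs8.S, with a change of -2.42.

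The 15 leading losses were man1c1.S, b4galnt1.L, bves.S, cplx1.L, tek.S, gpx4.L, crmp1.L, abhd12.S, sord.L, spon2.S, prkg2.L, gpr160.S, gmds.L, slc25a26.L and borcs8.S. They include glycan enzymes (man1c1, b4galnt1, gmds), a lipid hydroperoxide reductase (gpx4), a sugar alcohol dehydrogenase (sord), a cGMP-dependent kinase (prkg2) and the angiopoietin receptor (tek). man1c1.S, a Golgi mannosidase that trims N-glycans, stood at 2.86, 2.9 and 2.29 with activin/RA, against 7.1, 7.21 and 7.14 in untreated caps (change -4.47 ± 0.18, SE, n = 3 pairs, adjusted p = 3.06e-05). The values for gmds.L, the first enzyme of GDP-fucose synthesis from GDP-mannose, were 5.2, 5.14 and 5.28 with activin/RA, against 7.65, 7.82 and 7.63 in untreated caps (change -2.49 ± 0.14, adjusted p = 9.98e-05). sord.L stood at 6.76, 6.5 and 6.93 with activin/RA, against 9.47, 9.71 and 9.49 in untreated caps, and prkg2.L at 5.33, 5.22 and 5.54 with activin/RA, against 8.01, 8.03 and 7.94 in untreated caps. On the activin/RA arrays gmds.L, sord.L and prkg2.L stayed above the lower end of the scale, as did gpx4.L at 5.36, 5.01 and 4.99 with activin/RA, against 8.63, 8.84 and 8.85 in untreated caps. By contrast cplx1.L, a synaptic vesicle fusion regulator, crmp1.L, a cytoskeletal regulator of axon guidance, and abhd12.S, a lysophospholipid hydrolase, were at the lower end of the scale with activin/RA, as was man1c1.S. cplx1.L stood at 1.91, 2.5 and 1.82 with activin/RA, against 6.52, 5.91 and 6.12 in untreated caps, and abhd12.S at 2.75, 2.38 and 2.33 with activin/RA, against 5.7, 5.87 and 5.86 in untreated caps. slc25a26.L, the mitochondrial carrier of S-adenosylmethionine, stood at 6.2, 6.36 and 6.58 with activin/RA, against 8.68, 8.99 and 8.79 in untreated caps, the change being -2.44 ± 0.13 (adjusted p = 8.46e-05).

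The gene groups described next were compared with the background shares of 9.71% higher and 14.6% lower, and some genes stand in several groups. Of 44 mesendoderm transcription factors 34 rose and 1 fell, and 27 rose at least 2-fold in every pair. Their median change was 2.29, against -0.05 over all genes. Without the control MO, ERK3 MO1/2 or ERK3 MO3 pair 36, 28 and 31 rose. The mix/bix homeobox genes, which act early in endoderm and mesoderm, rose in 8 of 8 cases, each at least 2-fold in every pair. bix1.2.S stood at 5.41, 6.05 and 5.08 with activin/RA, against 1.78, 2.19 and 1.81 in untreated caps (change 3.58 ± 0.17, adjusted p = 5.39e-05), and mixer.S at 7.31, 7.58 and 7.41 with activin/RA, against 3.31, 3.33 and 2.93 in untreated caps (change 4.24 ± 0.16, adjusted p = 2.54e-05). The 8 T-box genes also all rose. eomes.S, a regulator of mesendoderm, stood at 6.62, 7.21 and 6.45 with activin/RA, against 2.14, 2.09 and 2.64 in untreated caps, while tbxt.S, the brachyury gene, stood at 7.17, 7.63 and 6.96 with activin/RA, against 2.7, 3.25 and 3.6 in untreated caps. Its other copy tbxt.L had 6.09, 5.05 and 4.62 with activin/RA, against 3.05, 3.23 and 3.27 in untreated caps, and in neither copy did the cultures overlap. vegt.S, which encodes a T-box factor supplied to the egg and made again by the zygote, stood at 9.78, 10.72 and 10.1 with activin/RA, against 6.12, 7.3 and 7.48 in untreated caps.

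Of 13 GATA and SOX genes of mesendoderm 9 rose and 1 fell. sox17a.S, an endoderm regulator, stood at 6.86, 6.64 and 6.59 with activin/RA, against 2.51, 3.14 and 2.65 in untreated caps (change 3.93 ± 0.2, adjusted p = 6.73e-05). gata6.L stood at 8.05, 6.97 and 6.88 with activin/RA, against 4.09, 3.14 and 3.42 in untreated caps and gata6.S at 7.66, 6.6 and 6.91 with activin/RA, against 4.32, 2.78 and 2.81 in untreated caps, and both copies were apart between cultures on all arrays. The gene that fell was gata5.S, at 4.76, 4.45 and 5.15 with activin/RA, against 7.41, 5.9 and 5.93 in untreated caps (change -1.63 ± 0.32, adjusted p = 0.0141), while its copy gata5.L rose and had 5.88, 4.9 and 5.47 with activin/RA, against 5.36, 4.49 and 4.3 in untreated caps. For gata4.L, at 7.41, 6.57 and 6.87 with activin/RA, against 6.49, 3.1 and 4.08 in untreated caps, the second probe set changed by 0.08. Of 15 forkhead genes 9 rose and 0 fell (limma, 9 and 1 at an unadjusted p under 0.05). foxc2.L, a regulator of paraxial and intermediate mesoderm, stood at 7.12, 6.97 and 5.94 with activin/RA, against 3.06, 3.17 and 2.9 in untreated caps, and foxc1.L at 6.48, 6.02 and 5.62 with activin/RA, against 3.8, 3.56 and 3.79 in untreated caps. The other copy foxc2.S changed by 0.47 and did not pass. foxf1.L, a lateral plate gene, did not pass, at 5.52, 4.94 and 5.02 with activin/RA, against 6.0, 3.22 and 4.0 in untreated caps (adjusted p = 0.201), and its untreated control MO value lay above all activin/RA values.

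Within the Nodal and activin pathway 7 of 9 receptors and 5 of 7 effectors did not pass, near the share over all genes (8552 of 11303). Of 10 ligand genes 5 rose and 0 fell (limma, 5 and 1 at an unadjusted p under 0.05). gdf3.S, a TGF-beta family ligand gene, stood at 8.16, 8.68 and 8.45 with activin/RA, against 4.81, 4.02 and 4.06 in untreated caps (change 4.14 ± 0.25, adjusted p = 0.00012). nodal2.L stood at 5.29, 6.34 and 5.99 with activin/RA, against 3.63, 3.32 and 3.44 in untreated caps, nodal1.L changed by 1.81, nodal.L by 1.33 and gdf1.S by 1.03. The cultures did not overlap for these 5 genes, which were picked for passing (14.3% of all genes, passed or not, were higher without overlap). nodal3.1.L and inhbb.L, an activin subunit gene, did not pass, with changes of -0.61 and -0.39 (adjusted p = 0.082 and 0.216).

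Of 9 receptor and co-receptor genes 1 rose and 1 fell, and both belong to the EGF-CFC co-receptors that Nodal ligands need. tdgf1.2.S stood at 4.96, 3.31 and 3.56 with activin/RA, against 1.87, 2.26 and 2.36 in untreated caps, a rise of 1.78 (adjusted p = 0.0162). tdgf1.3.L stood at 9.62, 9.7 and 9.66 with activin/RA, against 10.34, 10.39 and 10.4 in untreated caps (change -0.72 ± 0.09, adjusted p = 0.00224), so the 2 genes moved in opposite directions in every pair. The type I receptor gene tgfbr1.S had a change of -0.29 and the type II receptor gene acvr2b.S one of -0.01, without passing. Among 7 effectors smad4.L, the partner shared by activin and BMP Smads, rose by 1.73 (adjusted p = 0.00459) and smad2.S fell by 0.48 (adjusted p = 0.0437). foxh1.L did not pass (8.95, 9.34 and 8.98 with activin/RA, against 8.47, 9.73 and 9.67 in untreated caps). Of 15 inhibitor genes 2 rose and 3 fell. cer1.S, which encodes Cerberus, a secreted antagonist of Nodal, BMP and Wnt ligands, stood at 9.0, 8.28 and 7.68 with activin/RA, against 2.36, 2.88 and 2.75 in untreated caps. lefty.S, a feedback antagonist of Nodal, rose by 0.59 (adjusted p = 0.0381). fst.L, the gene of follistatin, which binds activin, stood at 5.02, 5.1 and 6.19 with activin/RA, against 6.5, 6.64 and 6.77 in untreated caps (change -1.2 ± 0.21, adjusted p = 0.00992), and tgif2.S fell by 0.59.

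In the retinoic acid pathway all 4 measured genes whose products lower retinoic acid rose. dhrs3.L, which returns retinaldehyde to retinol, stood at 10.57, 10.04 and 9.75 with activin/RA, against 6.32, 5.1 and 6.13 in untreated caps (change 4.27 ± 0.23, adjusted p = 8.41e-05). cyp26a1.S, a cytochrome P450 that degrades retinoic acid, stood at 11.08, 11.19 and 10.92 with activin/RA, against 7.9, 7.99 and 8.08 in untreated caps, and cyp26a1.L at 10.73, 10.41 and 9.91 with activin/RA, against 7.74, 6.99 and 7.47 in untreated caps. The gains of the 2 copies were 3.08 and 2.95. cyp26c1.S rose by 0.9 (adjusted p = 0.0418). Of 8 synthesis genes 2 rose and 0 fell (limma, 3 and 1 at an unadjusted p under 0.05). They were aldh1a2.L, the retinaldehyde dehydrogenase gene, at 10.09, 10.34 and 10.06 with activin/RA, against 8.33, 8.78 and 8.55 in untreated caps, and rdh10.L, a retinol dehydrogenase gene, with a change of 1.17 (adjusted p = 0.00264). The 7 probe sets of aldh1a2.L ranged from 0.19 to 3.15. The carrier gene crabp2.L rose by 1.78, although another of its probe sets stood at -0.21. Of 9 receptor and cofactor genes rxrb.S rose by 0.66 and rxrg.L fell by 1.34 (adjusted p = 0.0266 and 0.00448), and rarg.S did not pass (0.5, adjusted p = 0.11).

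The Hox genes, which are switched on in order along the clusters and mark position along the trunk, were described by paralogue group. Of 6 genes of groups 1 to 4 measured, 2 rose and 0 fell (limma, 2 and 0 at an unadjusted p under 0.05). hoxb4.S stood at 7.42, 5.85 and 4.9 with activin/RA, against 3.08, 3.48 and 3.1 in untreated caps (change 2.84 ± 0.43, adjusted p = 0.0055), with the highest value in the control MO caps. hoxa3.S stood at 5.54, 5.49 and 5.77 with activin/RA, against 4.31, 3.67 and 4.1 in untreated caps (change 1.58 ± 0.18, adjusted p = 0.00177). Of 9 genes of groups 5 to 8, hoxc5.L and hoxc6.S rose by 2.35 and 0.72, and hoxd8.L fell by 0.69. hoxc5.L stood at 6.71, 5.61 and 5.4 with activin/RA, against 4.11, 3.05 and 3.52 in untreated caps, and its 3 probe sets ranged from 0.4 to 2.35. Of 10 genes of groups 9 to 13, 0 rose and 4 fell (limma, 0 and 5 at an unadjusted p under 0.05). hoxd13.S stood at 4.49, 4.74 and 4.67 with activin/RA, against 6.91, 6.42 and 6.51 in untreated caps (change -1.98 ± 0.19, adjusted p = 0.000774). hoxd10.L, hoxd11.L and hoxa11.S fell by 1.39, 1.06 and 0.73. In all 4 genes, picked for passing, the cultures were apart (19.4% of all genes, passed or not, were lower without overlap). The other 6 genes of these groups did not pass. Without the control MO, ERK3 MO1/2 or ERK3 MO3 pair 4, 3 and 2 genes of groups 9 to 13 fell. Most Hox genes were dim, and of groups 1 to 4 only 2 of 6 lay above the median of all values on any array. For groups 5 to 8 and 9 to 13 the counts were 1 of 9 and 3 of 10. Whether the difference between paralogue groups exceeds the spread between genes was not tested.

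**Figure D2:**
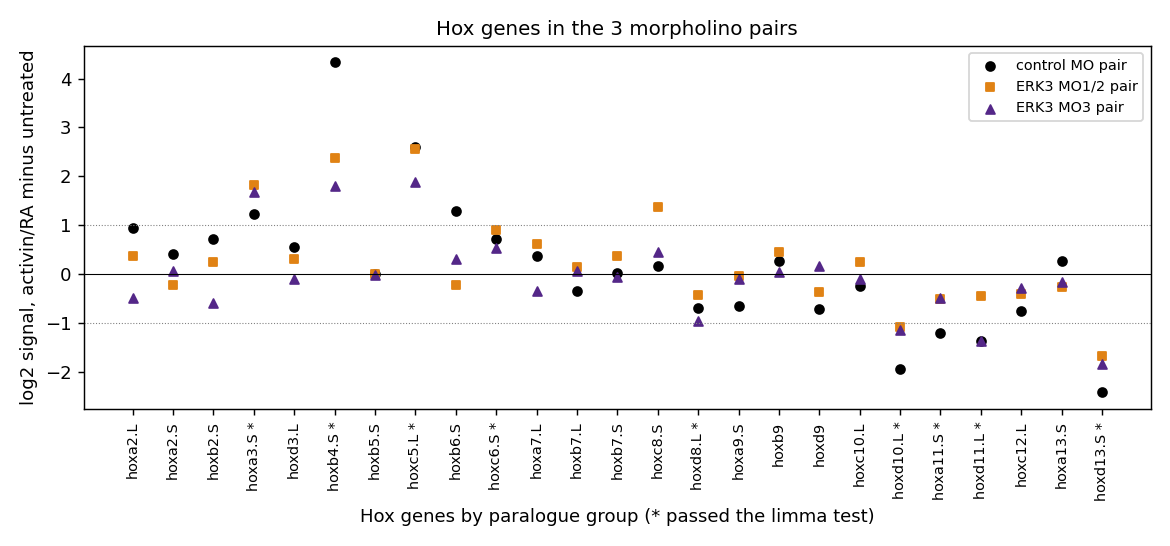
Difference in log2 signal, activin/RA minus untreated, for each measured Hox gene in each of the 3 morpholino pairs, ordered by paralogue group, with dotted lines at 2-fold. Points of hoxa3.S, hoxb4.S and hoxc5.L lie above the upper line in every pair, and hoxd10.L and hoxd13.S lie below the lower line in every pair.

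Caudal homeobox genes, which act upstream of posterior Hox genes, rose in 3 of 3 cases. cdx4.L stood at 8.6, 7.62 and 6.82 with activin/RA, against 2.55, 2.96 and 2.06 in untreated caps, cdx1.S at 8.6, 7.8 and 7.59 with activin/RA, against 5.42, 3.97 and 5.17 in untreated caps and cdx2.L at 7.76, 6.94 and 6.44 with activin/RA, against 4.54, 4.42 and 4.52 in untreated caps. In each of them the activin/RA level was highest with control MO and lowest with ERK3 MO3. Of 7 TALE homeobox genes, which encode Hox cofactors, both copies of meis3 rose and the other 5 did not pass. meis3.L stood at 7.13, 4.45 and 4.69 with activin/RA, against 3.62, 2.8 and 3.05 in untreated caps and meis3.S at 6.9, 5.01 and 4.75 with activin/RA, against 5.13, 2.99 and 3.54 in untreated caps (changes 2.27 and 1.67, adjusted p = 0.00652 and 0.0022). For meis3.S the cultures overlapped, since the untreated control MO value was above the activin/RA values of both ERK3 arrays.

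Of 17 transcription factors of the organizer and axial mesoderm 11 rose and 1 fell. gsc.L, the organizer homeobox gene goosecoid, stood at 5.49, 7.02 and 6.41 with activin/RA, against 2.99, 3.99 and 3.8 in untreated caps (change 2.72 ± 0.17, adjusted p = 0.000154). hhex.L, a gene of anterior endoderm and endothelium, stood at 5.28, 5.51 and 4.6 with activin/RA, against 2.34, 2.59 and 2.85 in untreated caps. hesx1.L, an anterior neural and prechordal repressor gene, was the gene that fell, at 4.15, 3.74 and 4.17 with activin/RA, against 6.0, 4.49 and 4.85 in untreated caps (change -1.09 ± 0.25, adjusted p = 0.023). otx2.L and otx2.S, of the anterior endomesoderm and head ectoderm, did not pass, with changes of -0.49 and -0.83. Of 21 secreted factors 9 rose and 1 fell. frzb.S, a soluble Wnt-binding protein, stood at 4.02, 5.15 and 4.53 with activin/RA, against 1.48, 1.55 and 1.15 in untreated caps, dkk1.S, an inhibitor of the Wnt coreceptor, at 6.73, 5.6 and 6.16 with activin/RA, against 3.12, 3.56 and 4.13 in untreated caps, and admp.S, a BMP-like ligand of the organizer, at 5.66, 5.76 and 5.18 with activin/RA, against 2.47, 3.46 and 3.37 in untreated caps. Of 7 genes listed under notochord structure 0 passed (limma, 0 at an unadjusted p under 0.05). The list also holds calr.L and calr.S, which are not particular to notochord, so the count does not measure notochord structure alone.

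Of 23 presomitic genes of the paraxial mesoderm 17 rose, 1 fell and 5 did not pass, and without the control MO, ERK3 MO1/2 or ERK3 MO3 pair 17, 14 and 16 rose. pcdh8.2.L, the paraxial protocadherin, stood at 8.68, 8.82 and 7.86 with activin/RA, against 3.93, 2.78 and 3.08 in untreated caps. mespa.L, a segmentation bHLH gene, stood at 7.13, 5.66 and 4.98 with activin/RA, against 2.26, 2.03 and 2.15 in untreated caps and mespa.S at 6.65, 5.83 and 4.84 with activin/RA, against 2.63, 1.99 and 1.53 in untreated caps. Both were at the low end of the scale in untreated caps and highest with control MO in activin/RA caps. hes7.1.L, a clock-related repressor gene, was the one that fell, at 5.23, 5.11 and 5.35 with activin/RA, against 7.47, 6.9 and 7.52 in untreated caps (change -2.07 ± 0.15, adjusted p = 0.00031), while hes7.2.L rose, at 6.72, 6.75 and 5.79 with activin/RA, against 3.37, 5.26 and 4.17 in untreated caps (change 2.15 ± 0.35, adjusted p = 0.00694). Of 16 myogenic regulators mef2d.L rose by 0.71 and myod1.L, at 4.68, 6.01 and 5.96 with activin/RA, against 6.81, 7.24 and 6.63 in untreated caps, fell by 1.34 (adjusted p = 0.0137). Of 21 muscle structure genes 0 passed (limma, 0 at an unadjusted p under 0.05). Only 1 of the 21 lay above the median of all values on any array, so for most of them an unchanged level is not shown. ckm.L, muscle creatine kinase, stood at 4.84, 4.5 and 4.94 with activin/RA, against 4.4, 4.52 and 4.27 in untreated caps (adjusted p = 0.212).

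For the pronephros, the tissue that activin with retinoic acid is used to obtain, 11 of 22 regulators rose and 0 fell (limma, 12 and 1 at an unadjusted p under 0.05). osr1.L, a zinc-finger gene of the intermediate mesoderm, stood at 7.18, 7.04 and 7.04 with activin/RA, against 4.5, 4.25 and 3.57 in untreated caps (change 2.98 ± 0.19, adjusted p = 0.000179). Its cultures did not overlap. Of 9 signal genes fgf8.L and wnt11b.L rose, wnt11b.L standing at 8.76, 8.95 and 8.86 with activin/RA, against 7.3, 7.04 and 7.67 in untreated caps (adjusted p = 0.00114). The 5 genes of tubule and glomus did not pass (limma, 0 higher and 1 lower at an unadjusted p under 0.05). Only 1 of the 5 lay above the median of all values on any array. slc5a2.L, a renal glucose transporter gene, had 3.99, 4.02 and 4.06 with activin/RA, against 5.08, 4.72 and 4.18 in untreated caps (adjusted p = 0.0742), and atp1b1.S, a sodium pump subunit gene, had a change of -0.26.

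Other mesodermal and endodermal organs were counted next. Of 15 blood genes gata2.L alone passed, at 10.26, 9.61 and 9.72 with activin/RA, against 9.88, 7.93 and 8.46 in untreated caps. Without the ERK3 MO1/2 pair 0 blood genes passed, and without the control MO pair 3 rose. Of 11 endothelial genes 4 rose and 2 fell. Both copies of the apelin receptor rose, aplnr.L at 8.7, 8.56 and 8.48 with activin/RA, against 6.5, 5.73 and 7.88 in untreated caps and aplnr.S at 6.57, 6.05 and 6.11 with activin/RA, against 4.15, 3.03 and 5.42 in untreated caps, while tek.S fell to 3.36, 3.02 and 2.68 with activin/RA, against 6.7, 7.12 and 6.83 in untreated caps. egfl7.S, a secreted endothelial protein gene, fell by 0.95 (adjusted p = 0.00557). Without the ERK3 MO1/2 pair 1 endothelial gene rose and 1 fell, and without the control MO pair 4 rose and 2 fell. Of 20 heart genes 3 rose (15%, against 9.71% of all genes) and 1 fell (5%, against 14.6%). All of these are GATA genes, and the one that fell is gata5.S, described above. In the list of liver and gut 5 of 17 rose and 1 fell, among them foxa1.L (5.56, 5.78 and 5.68 with activin/RA, against 4.72, 4.78 and 4.94 in untreated caps) and foxa1.S, with changes of 0.86 and 0.67. Of 13 pancreas genes mnx1.L and mnx1.S rose by 1.01 and 0.41, and ptf1a, an acinar and neural bHLH gene, fell by 1.05. The ttr.L gene of liver plasma transthyretin did not pass (2.9, 2.93 and 2.74 with activin/RA, against 2.92, 3.15 and 3.06 in untreated caps).

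**Figure D3:**
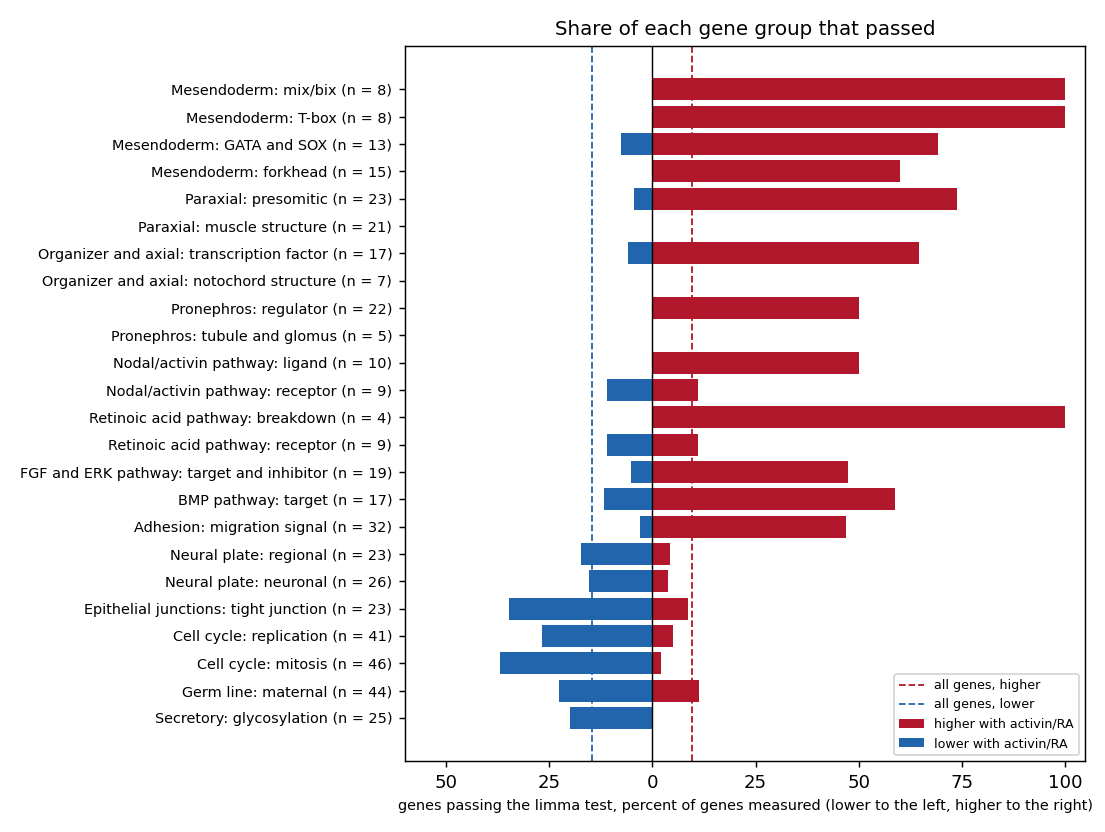
Percent of the measured genes of each group that passed the limma test as higher (right, red) or lower (left, blue) with activin/RA, with dashed lines at the shares of all genes, 9.71% and 14.6%, and the number of genes measured beside each name. The mix/bix, T-box and retinoic acid breakdown groups reach 100% on the right, and muscle structure, notochord structure and tubule genes have no bar.

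Other signalling pathways that pattern mesoderm and ectoderm were described by role. In the Wnt pathway 4 of 13 ligands, 6 of 22 inhibitors and 7 of 20 effectors and targets rose and 0 of these fell (limma, 0, 1 and 2 at an unadjusted p under 0.05). wnt8a.L, a ventrolateral mesoderm ligand, stood at 8.5, 7.6 and 7.06 with activin/RA, against 2.17, 2.29 and 2.48 in untreated caps, and wnt5b.S at 7.29, 6.56 and 6.29 with activin/RA, against 5.26, 4.12 and 4.37 in untreated caps (adjusted p = 0.00039). The cultures were far apart for wnt8a.L, and less so for wnt5b.S. Among 19 receptors 4 rose and 2 fell. ror2.L, a receptor of noncanonical Wnt ligands, stood at 8.45, 8.13 and 7.61 with activin/RA, against 6.21, 4.03 and 5.26 in untreated caps (change 2.9 ± 0.34, adjusted p = 0.00214), fzd10.L and fzd10.S rose by 1.73 and 1.37, and fzd1.L and ryk.S fell by 0.72 and 0.57. sp5.L, a direct target of Wnt signalling, stood at 7.5, 6.06 and 6.03 with activin/RA, against 4.94, 4.06 and 4.97 in untreated caps. Without the control MO, ERK3 MO1/2 or ERK3 MO3 pair 31, 12 and 17 Wnt genes rose, against 21 with all pairs.

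In the FGF and ERK pathway 3 of 11 ligand genes rose and 0 fell (limma, 3 and 2 at an unadjusted p under 0.05). fgf20.L stood at 5.87, 7.21 and 6.42 with activin/RA, against 3.21, 4.72 and 4.64 in untreated caps, fgf3.L at 4.58, 4.1 and 4.56 with activin/RA, against 2.76, 3.05 and 2.71 in untreated caps, and fgf8.L rose by 2.2, with its 4 probe sets between 0.19 and 2.56. Of 19 targets and feedback inhibitors 9 rose and 1 fell, and the 9 did not overlap between cultures (14.3% of all genes, passed or not, were higher without overlap). spry2.L and spry2.S, feedback inhibitors of receptor tyrosine kinases, stood at 5.98, 6.33 and 5.84 with activin/RA, against 4.28, 4.94 and 4.97 in untreated caps and at 7.03, 7.48 and 7.05 with activin/RA, against 5.55, 6.19 and 6.18 in untreated caps. dusp5.S, an ERK phosphatase gene, stood at 8.6, 9.19 and 8.58 with activin/RA, against 7.54, 7.3 and 7.14 in untreated caps (adjusted p = 0.00182), while dusp1.L, a stress-induced phosphatase gene, was the gene that fell (8.73, 9.27 and 9.23 with activin/RA, against 9.41, 9.72 and 9.79 in untreated caps). The immediate early gene fos.S did not pass, at 7.22, 8.56 and 8.33 with activin/RA, against 9.48, 8.96 and 8.4 in untreated caps (adjusted p = 0.131). Without the ERK3 MO1/2 pair 4 of the targets and inhibitors rose, without the ERK3 MO3 pair 6, and without the control MO pair 11.

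BMP signalling patterns ventral mesoderm and epidermis, and its list behaved differently by pair. Of 17 target genes 10 rose and 2 fell, but the median difference of the 10 was 0.61 in the control MO pair, 2.57 in the ERK3 MO1/2 pair and 1.66 in the ERK3 MO3 pair. Of the 10, 5 had cultures that did not overlap, and 4 were 2-fold higher in the control MO pair. The 14.3% of all genes higher without overlap is no like measure here, since the 10 were picked for passing. ventx1.1.S, a ventral homeobox repressor gene, stood at 7.24, 6.38 and 6.41 with activin/RA, against 6.61, 2.98 and 4.38 in untreated caps, and gata3.S, a gene of non-neural ectoderm and pronephric duct, at 8.17, 7.5 and 7.53 with activin/RA, against 7.87, 4.6 and 4.9 in untreated caps. For both, the untreated control MO value lay above activin/RA values of the ERK3 arrays. The other copy ventx1.1.L changed by -0.29 and did not pass. msx2.L stood at 7.46, 7.08 and 7.02 with activin/RA, against 5.9, 4.34 and 5.09 in untreated caps, and here the cultures were apart. Without the control MO, ERK3 MO1/2 or ERK3 MO3 pair 13, 5 and 8 BMP targets rose. Of 14 ligands bmp7.1.L, admp.S and admp2.L rose, bmp7.1.L standing at 7.94, 6.98 and 6.99 with activin/RA, against 6.59, 3.33 and 4.27 in untreated caps, while bmp4.S did not pass (9.0, 9.12 and 9.09 with activin/RA, against 9.33, 8.22 and 8.34 in untreated caps). The list of 20 BMP inhibitors and related genes did not hold the antagonists chrd.1.S and cer1.S, which rose as described above. In it tll1.S rose and 3 genes fell. tll1.S encodes a protease that cleaves Chordin and so is no inhibitor of BMP, and it rose by 1.84 with overlapping cultures. The cofactor gene of Chordin twsg1.L stood at 7.63, 7.38 and 7.66 with activin/RA, against 8.81, 9.09 and 9.07 in untreated caps and fell by 1.43 (adjusted p = 0.000758).

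Among 21 Notch targets 5 rose and 4 fell, with hes5.1.L (1.02) on the higher side and hes2.L (7.05, 7.2 and 7.51 with activin/RA, against 9.42, 9.15 and 9.0 in untreated caps) on the lower side. hes1.S and hes4.L fell by 0.65 and 0.69. Of 15 Hedgehog pathway genes smo.L and shh.L rose by 1.13 and 0.76, and ptch1.S and sufu.L fell by 0.6 and 0.95. These are 13.3% each way, near the shares of all genes (9.71% higher and 14.6% lower). shh.L, the notochord ligand gene, stood at 2.26, 2.69 and 3.43 with activin/RA, against 1.94, 2.22 and 1.96 in untreated caps, near the lower end of the scale. Without the ERK3 MO1/2 pair 0 Hedgehog genes passed, and without the control MO pair 4 rose and 3 fell.

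Epidermal genes passed as higher with activin/RA more often than as lower. Of 31 epidermal regulators 13 rose and 2 fell, and of 22 structural genes 8 rose and 0 fell (limma, 9 and 1 at an unadjusted p under 0.05). The median difference of the 13 regulators was 0.59 in the control MO pair, 1.96 in the ERK3 MO1/2 pair and 1.26 in the ERK3 MO3 pair. Of the 13, picked for passing, 6 had cultures that did not overlap (14.3% of all genes, passed or not, were higher without overlap). Without the control MO, ERK3 MO1/2 or ERK3 MO3 pair 18, 5 and 8 regulators rose. The 10 BMP targets that rose are all among these 13 regulators, so the groups are not separate readings. The keratin gene krt12.4.L stood at 8.73, 7.28 and 6.07 with activin/RA, against 5.34, 1.72 and 1.59 in untreated caps, and krt12.5.S at 9.85, 7.91 and 7.51 with activin/RA, against 7.64, 2.53 and 4.26 in untreated caps. In both keratins the untreated control MO value was well above the other untreated values, and the difference was smallest in the control MO pair. klf5.S, an epithelial zinc-finger gene, and hes4.L were the regulators that fell, klf5.S standing at 7.58, 7.46 and 7.75 with activin/RA, against 8.61, 8.36 and 8.54 in untreated caps (change -0.91 ± 0.11, adjusted p = 0.00278). The regulators grhl3.S and tfap2a.L did not pass (0.44 and 0.51, adjusted p = 0.143 and 0.122), nor did the keratin krt70.S (-0.38, adjusted p = 0.0671).

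**Figure D4:**
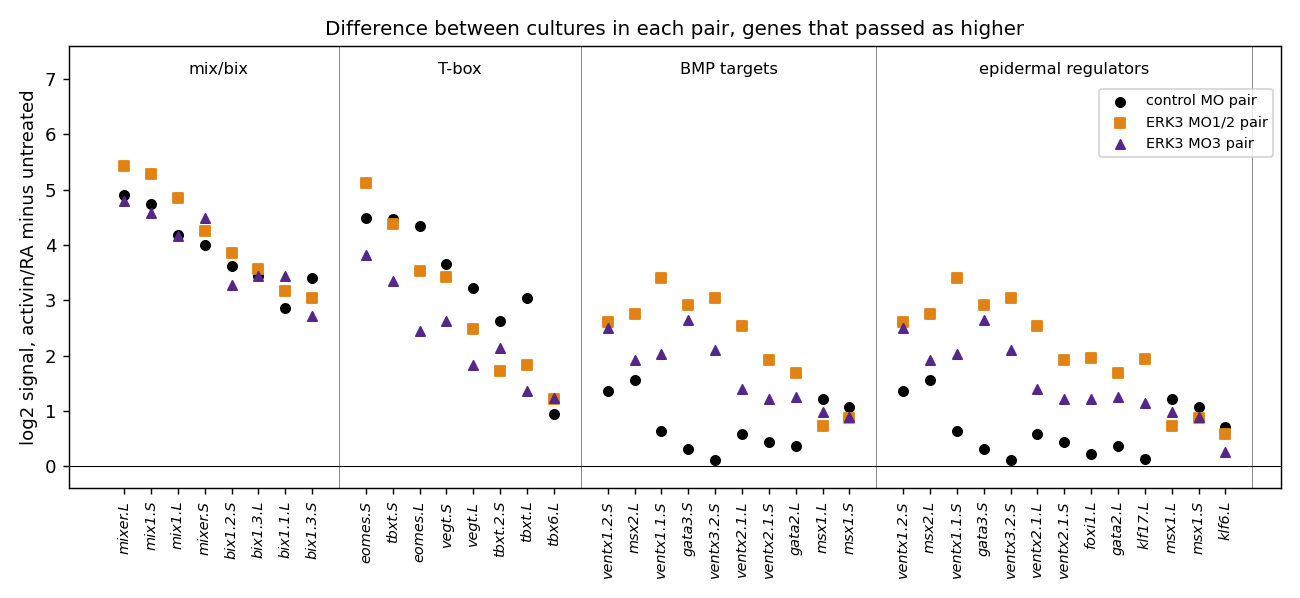
Difference in log2 signal, activin/RA minus untreated, in each morpholino pair for the genes that passed as higher among mix/bix, T-box, BMP target and epidermal regulator genes. Circles for the control MO pair lie among the other symbols for mix/bix genes, with a group median of 3.81 against 4.05 and 3.81, and below them for most BMP targets, with a group median of 0.61 against 2.57 and 1.66.

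Genes of the single epidermal cell types were counted apart. Of 15 ionocyte genes 4 rose and 2 fell. ubp1.L, a regulator of these proton-pumping cells, stood at 7.23, 6.56 and 6.42 with activin/RA, against 5.63, 4.82 and 4.61 in untreated caps and was apart between cultures, whereas foxi1.L stood at 10.77, 9.94 and 10.4 with activin/RA, against 10.55, 7.98 and 9.19 in untreated caps and overlapped. The carbonic anhydrase gene ca12.L fell to 7.01, 7.59 and 6.81 with activin/RA, against 7.75, 8.7 and 8.02 in untreated caps. Without the ERK3 MO1/2 pair, or without the ERK3 MO3 pair, 1 ionocyte gene rose and 1 fell, and without the control MO pair 4 rose and 3 fell. Of 22 multiciliated cell genes 1 passed, ccno.L, which is needed for centriole amplification and stood at 7.74, 7.29 and 7.55 with activin/RA, against 8.36, 8.43 and 8.2 in untreated caps (change -0.8 ± 0.14, adjusted p = 0.00971). Of 9 secretory cell genes 3 rose and 1 fell. The one that fell, slc18a2.L, a vesicular monoamine transporter gene of serotonin-secreting cells, stood at 5.88, 6.41 and 5.71 with activin/RA, against 6.82, 8.52 and 8.09 in untreated caps (adjusted p = 0.00491). Of 5 cement and hatching gland genes 0 passed (limma, 0 at an unadjusted p under 0.05).

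Epithelial junction genes were counted by junction type. Of 23 tight junction genes 8 fell and 2 rose, and of 11 desmosome genes 5 rose and 0 fell (limma, 5 and 0 at an unadjusted p under 0.05). cgnl1.L, a cytoplasmic tight junction protein gene, stood at 6.5, 7.06 and 7.29 with activin/RA, against 8.39, 8.42 and 8.71 in untreated caps (change -1.56 ± 0.14, adjusted p = 0.000721), and its 3 probe sets ranged from -1.56 to -0.48. cldn5.L, a claudin gene, stood at 3.35, 3.87 and 4.96 with activin/RA, against 5.5, 5.82 and 5.91 in untreated caps (change -1.68 ± 0.25, adjusted p = 0.00491), and cldn6.1.S fell by 0.51. f11r.S and ocln.S, genes of tight junction membrane proteins, rose by 0.66 and 0.66. pkp3.L, a plakophilin gene of desmosomes, stood at 8.11, 8.17 and 8.09 with activin/RA, against 6.79, 6.39 and 6.63 in untreated caps and pkp3.S rose by 1.08. Of 20 adherens junction genes cdh1.S and cdh3.S rose and epcam.L fell. cdh1.S, the E-cadherin gene, stood at 6.11, 4.08 and 4.08 with activin/RA, against 5.55, 2.35 and 3.53 in untreated caps, with overlapping cultures, and cdh3.S at 9.9, 9.8 and 10.02 with activin/RA, against 9.49, 9.03 and 9.39 in untreated caps. Without the ERK3 MO1/2 pair 1 tight junction gene fell, without the ERK3 MO3 pair 2 fell, and without the control MO pair 8 fell, as with all pairs. The difference between junction types was not tested.

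Of 84 genes of matrix, adhesion and migration 28 rose (33.3%) and 6 fell (7.14%). Of 32 migration and mesenchymal genes 15 rose and 1 fell. snai1.S, a repressor of E-cadherin in migrating mesoderm and neural crest, stood at 8.77, 8.5 and 8.37 with activin/RA, against 4.75, 4.72 and 5.29 in untreated caps (change 3.62 ± 0.19, adjusted p = 8.46e-05). zeb2.S, a repressor of the same kind, stood at 7.06, 6.71 and 6.43 with activin/RA, against 4.15, 3.39 and 4.01 in untreated caps, and pdgfra.L, the receptor that guides mesoderm migration, at 6.63, 6.3 and 6.18 with activin/RA, against 4.57, 3.55 and 3.36 in untreated caps. In all 3 genes, picked for passing, every activin/RA value was above every untreated value (14.3% of all genes, passed or not, were higher without overlap). cxcl12.L, a chemokine gene, fell by 0.9 (adjusted p = 0.0247). Of 25 matrix genes 8 rose and 2 fell. has2.S, a hyaluronan synthase gene, stood at 8.66, 9.35 and 8.94 with activin/RA, against 5.71, 5.33 and 5.39 in untreated caps, and vcan.L, a hyaluronan-binding proteoglycan gene, at 8.07, 7.6 and 7.57 with activin/RA, against 5.71, 3.34 and 4.93 in untreated caps. mmp1.S, a collagenase gene, stood at 5.01, 6.78 and 6.9 with activin/RA, against 3.49, 3.36 and 3.47 in untreated caps, lower with control MO than with either ERK3 morpholino in activin/RA caps. col18a1.S, a basement membrane collagen gene, fell by 0.98. Among 27 adhesion receptors 5 rose and 3 fell, with cdh11.S, a mesenchymal cadherin gene, at 5.58, 5.12 and 3.94 with activin/RA, against 2.28, 2.77 and 2.89 in untreated caps. Without the ERK3 MO1/2 pair 7 migration genes rose, without the ERK3 MO3 pair 9, and without the control MO pair 16.

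Of 69 neural plate genes 6 rose (8.7%) and 11 fell (15.9%), shares near those of all genes. Of 26 neuronal genes 4 fell and 1 rose, and apart from cplx1.L and crmp1.L the largest fall was that of neurod1.S, a neuronal bHLH gene, at 1.96, 2.29 and 2.4 with activin/RA, against 4.67, 3.35 and 4.76 in untreated caps (change -2.05 ± 0.29, adjusted p = 0.00453). Its other copy neurod1.L changed by -0.2 and did not pass. Of 23 regional genes irx3.L rose and 4 fell (fezf2.L, lhx2.L, six3.L and hesx1.L), a share near that of all genes, and 1 fell without the ERK3 MO1/2 pair and 2 with 16 added to the signal. irx3.L stood at 7.5, 8.36 and 7.87 with activin/RA, against 6.2, 6.96 and 6.6 in untreated caps, and its other probe set stood at 0.06. six3.L fell by 0.83 and fezf2.L by 0.73 (adjusted p = 0.0317 and 0.0446). Of 20 pan-neural genes 4 rose and 3 fell. sall4.L, a stem cell and posterior zinc-finger gene, stood at 10.05, 9.88 and 10.07 with activin/RA, against 8.7, 8.46 and 8.84 in untreated caps and sall1.L rose by 1.39, while sox2.L, at 8.98, 8.5 and 9.08 with activin/RA, against 9.64, 9.3 and 9.6 in untreated caps, fell by 0.66 (adjusted p = 0.00642). sox3.S did not pass (-0.04, adjusted p = 0.819). Of 22 neural crest genes 7 rose and 1 fell, led by snai1.S and by snai2.S, at 5.03, 4.09 and 4.5 with activin/RA, against 2.18, 1.86 and 3.05 in untreated caps, both of which mesoderm also uses.

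Of 127 cell cycle genes 35 fell (27.6%, against 14.6% of all genes) and 6 rose, with a median change of -0.27, against -0.05 over all genes. In mitosis 17 of 46 fell and 1 rose, in replication 11 of 41 fell and 2 rose, and of 40 cyclins, kinases and their inhibitors 7 fell and 3 rose. mad2l1.L, a spindle checkpoint gene, stood at 4.87, 5.04 and 4.84 with activin/RA, against 6.42, 7.19 and 6.89 in untreated caps (change -1.92 ± 0.17, adjusted p = 0.000662), and birc5.L, a subunit of the chromosomal passenger complex, at 8.48, 9.62 and 9.27 with activin/RA, against 9.41, 10.76 and 10.49 in untreated caps (change -1.1 ± 0.1, adjusted p = 0.000701). aurka.S, a spindle pole kinase gene, stood at 7.69, 7.44 and 7.66 with activin/RA, against 8.51, 8.45 and 8.88 in untreated caps. rfc3.L, a clamp loader subunit gene, stood at 7.58, 7.69 and 7.63 with activin/RA, against 8.36, 8.69 and 8.58 in untreated caps, and cdc45.L, part of the replicative helicase, at 7.77, 8.13 and 7.74 with activin/RA, against 8.31, 9.15 and 8.77 in untreated caps. The changes are small beside those of the mesoderm genes, and 2 of the 127 genes fell at least 2-fold in every pair. pcna.L did not pass (11.54, 11.89 and 11.76 with activin/RA, against 11.81, 11.7 and 11.75 in untreated caps). Among the genes that rose were cdk4.S, by 0.62, and cdkn1a.L, a kinase inhibitor gene, by 0.66. Without the control MO, ERK3 MO1/2 or ERK3 MO3 pair 57, 12 and 12 cell cycle genes fell.

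Genes on the list of maternal regulators moved in both directions. Arrays of stage 15 caps do not part RNA stored in the egg from RNA made by the embryo. A rise is therefore not read as a rise of stored RNA, and vegt, for example, is made again by the zygote. Of 44 genes on this list 5 rose and 10 fell. The rises included both copies of vegt and pou5f3.1.L, an Oct4-related gene, at 10.91, 10.46 and 10.27 with activin/RA, against 9.85, 7.76 and 8.28 in untreated caps (change 1.92 ± 0.27, adjusted p = 0.00395). The falls included btg4.L, an adaptor of mRNA deadenylation, at 5.67, 7.29 and 6.93 with activin/RA, against 7.0, 9.05 and 8.74 in untreated caps (change -1.63 ± 0.14, adjusted p = 0.000594), and cpeb1.L, a regulator of cytoplasmic polyadenylation, at 5.25, 5.73 and 6.01 with activin/RA, against 5.24, 7.45 and 8.26 in untreated caps (adjusted p = 0.0487). For cpeb1.L the control MO pair hardly differed. Of the 10 genes that fell 1 had cultures that did not overlap (19.4% of all genes, passed or not, were lower without overlap). In the control MO pair 1 of the 10 was 2-fold lower, against 5 in the ERK3 MO1/2 pair and 6 in the ERK3 MO3 pair. Without the control MO, ERK3 MO1/2 or ERK3 MO3 pair 21, 1 and 3 maternal genes fell. Of 15 germ plasm genes rtn3.S rose and spire1.S fell.

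The pair differences were tested for themselves with an interaction of culture and ERK3 morpholino, in which the 2 ERK3 reagents stood in for replicates. None of the 32539 probe sets passed (limma, 0 called, 3061 at an unadjusted p under 0.05). At 2-fold, 371 probe sets were higher and 500 lower in both ERK3 pairs without reaching that size in the control MO pair. Among the larger differences, chosen after the values were seen, was that of socs3, an inhibitor of cytokine signalling. socs3.S stood at 2.99, 4.07 and 5.31 with activin/RA, against 7.58, 3.76 and 4.19 in untreated caps, with the highest value on the untreated control MO array. Its interaction was 5.3 (adjusted p = 0.196). The interaction for hoxb4.S was -2.24 (adjusted p = 0.35) and that for gata3.S 2.47 (adjusted p = 0.196), in opposite directions.

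The tetraploid genome gives a second reading of many genes, since L and S copies have their own probe sets, although the copies can share probes. Among 2009 genes with both copies measured 62.4% changed with 1 sign, and among 210 with both copies passing 188 (89.5%) moved in 1 direction, 77 higher and 111 lower. The second copy was then counted for genes that reached 2-fold in every pair. Of the 215 genes gained 79 had a measured partner copy, and in 56 of them (70.9%) it rose as well, with a median partner change of 1.49. Of the 147 genes lost 53 had a measured partner, which fell in 18 (34%), with a median of -0.27. The partner was itself 2-fold changed in every pair in 44 of 79 gains and in 0 of 53 losses. Copies were counted apart, so a gene with both copies 2-fold in every pair enters 2 times. Only the gains hold such genes, which raises their shares, and the counts of gains are not counts of distinct genes. At 4-fold in every pair 83 genes were gained and 27 lost, and the partner moved the same way in 28 of 35 and in 2 of 7. Among the 2-fold genes with a measured partner the losses were smaller, with a median change of -1.59 against 2.38 for the gains. The difference between gains and losses was not tested.

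The partner copies named next, and the anxa1.2 and gpx3 copies, were chosen after their values were seen. foxa4.L and foxa4.S stood at 7.65, 8.7 and 7.92 and at 8.01, 8.77 and 8.13 with activin/RA, against 2.09, 2.93 and 3.75 and 1.8, 2.05 and 2.11 in untreated caps. By contrast gpx4.L fell by 3.65, while gpx4.S stood at 9.78, 9.67 and 9.85 with activin/RA, against 9.35, 9.49 and 9.34 in untreated caps and rose by 0.37 (adjusted p = 0.0444). bves.S, a Popeye family gene of cAMP-binding membrane proteins, stood at 2.37, 2.52 and 2.74 with activin/RA, against 5.8, 6.26 and 6.19 in untreated caps, while bves.L had 5.63, 6.15 and 5.99 with activin/RA, against 6.11, 6.74 and 6.35 in untreated caps and did not pass (adjusted p = 0.0513). gmds.S and gpr160.L fell by 0.54 and 0.64, far less than their partners. In 22 genes the copies passed in opposite directions. anxa1.2.L, an annexin gene, stood at 4.41, 4.55 and 4.97 with activin/RA, against 1.94, 1.92 and 1.23 in untreated caps, and anxa1.2.S at 7.88, 7.7 and 7.81 with activin/RA, against 8.88, 9.0 and 9.11 in untreated caps, so the changes were 2.95 and -1.2. gpx3.S, a secreted glutathione peroxidase gene, stood at 6.43, 6.97 and 6.23 with activin/RA, against 4.0, 2.82 and 3.33 in untreated caps, while gpx3.L fell by 0.37 with values near the floor. Of genes with several probe sets, 16 of 51 gained and 13 of 24 lost had a probe set that changed by 0.5 or less in that direction.

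**Figure D5:**
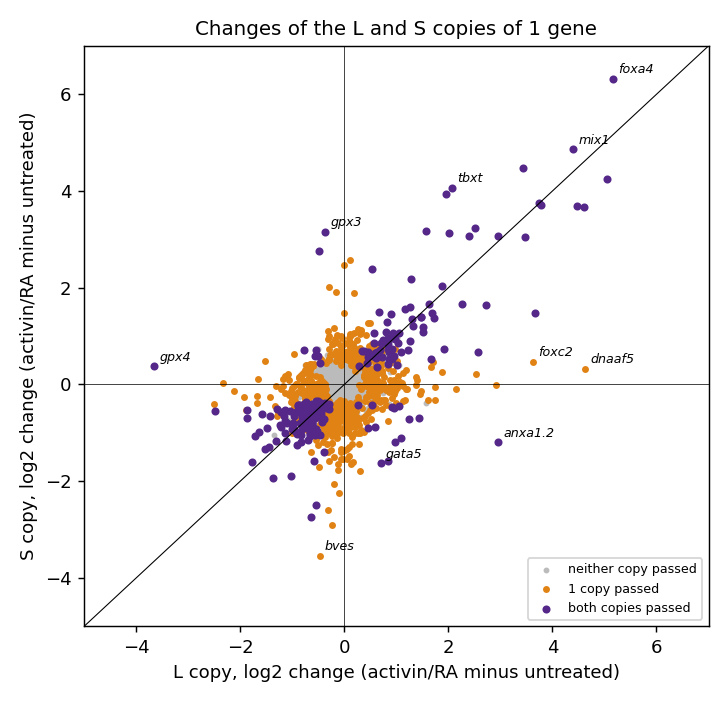
Change (mean of 3 pairs, log2) of the S copy against that of the L copy for 2009 genes with both copies measured, coloured by how many copies passed, with the line of equality. Points far up the line include foxa4 and mix1, whereas gpx4, bves, gpx3 and dnaaf5 lie near an axis, and gata5 and anxa1.2 lie in the quadrants of opposite signs.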

How the data were processed

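Expression was measured on 6 Affymetrix Xenopus laevis Genome 2.0 arrays. Per the labels and the series' design text, images were read with GCOS and normalized by RMA in Expression Console. The deposited values are intensity on a linear scale (2.13 to 18347), already background-corrected, quantile-normalized and summarised, so the arrays have nearly equal medians (log2 5.08 to 5.14) and a shift of most transcripts would be removed. RMA gives no detection call and compresses changes of weak genes, and the number of arrays limits the precision. From the 32635 rows 96 control probe sets were left out, log2 was taken with no constant, and 32539 probe sets were tested with limma 3.58.1 in R 4.3.3 (lmFit, eBayes with trend, morpholino as a block, 2 residual degrees of freedom). The shared morpholino pairs the arrays by design. In the platform annotation 15495 probe sets had 1 symbol, 279 had several and 16765 had none, and 15384 matched RefSeq by identifier. No probe set is named for mapk6, the ERK3 gene, so knockdown was not analysed here.

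Named genes were, among probe sets that passed, moved 1 way in all pairs and lay above the median of all values on an array, the 15 up and 15 down with the largest change in their weakest pair. Of each list and role up to 5 genes each way with the largest change, up to 3 that did not pass with the highest level, and any member of roles with 12 or fewer genes could be named. The 29 lists and the members were chosen with earlier results of these data known. Genes outside this rule are said to have been chosen after their values were seen, or are partner copies. On simulated arrays the steps were tested with 200 changed probe sets among 32539. Alternatives were no block, no trend, robust eBayes, a level filter, renormalization, centring, a constant of 16, other fold sizes, other probe set summaries and leaving out each pair.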

Additional observations from a re-analysis of the deposited data

Results flagged for a closer look

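In 347 of 11303 genes (3.07%) the difference between cultures had 1 sign in the control MO pair and the opposite sign in both ERK3 pairs, by more than 0.2 in each pair. The 5 described here are xepsin.L, the named gene that differed at least 2-fold in each pair, and 4 genes named in the report, and no interaction passed the limma test. xepsin.L stood at 8.38, 7.76 and 8.07 with activin/RA, against 9.49, 6.31 and 6.64 in untreated caps, an interaction (ERK3 pairs minus control MO pair) of 2.55 (adjusted p = 0.196). socs3.S had pair differences of -4.59, 0.31 and 1.12 and an interaction of 5.3 (adjusted p = 0.196). foxf1.L had pair differences of -0.48, 1.72 and 1.02 (interaction 1.85, adjusted p = 0.35), and bmp4.S had -0.33, 0.9 and 0.75 (interaction 1.16, adjusted p = 0.301). foxh1.L ran the other way, with 0.47, -0.4 and -0.68 and an interaction of -1.01 (adjusted p = 0.35). The untreated control MO array, which stood apart from the other untreated arrays, held the highest untreated value for the first 4 of these genes and the lowest for foxh1.L, and its part in these differences was not tested. xepsin.L and socs3.S were chosen after their values were seen.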

How the results depend on the processing

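All 30 genes named by their weakest pair kept their direction and passed under each of the 10 alternatives run on them. This follows largely from choosing passing genes with the largest change in their weakest pair, so it is no independent check. Of all 227 genes named in the text 69 lost their call without the ERK3 MO1/2 pair, 46 without the ERK3 MO3 pair, 3 without the control MO pair and 68 with no replicate block, and none of them reversed. Without the control MO pair 10 came out stronger. The genes named include some that had not passed and so had no call to lose. The 6668 probe sets that passed came to 2860 with no replicate block, so the pairing by morpholino moved this count, and to 1878 to 10659 when 1 pair was left out. The interaction called 0 probe sets, and 6 with 16 added to the signal. The 959 probe sets at 2-fold in every pair were 2537 at 1.5-fold, 260 at 4-fold, 498 with 16 added, and 1058 to 1830 with 1 pair left out, where only 2 pairs need to agree. Of 29 lists 24 had a median above that of all genes, and 23 to 25 under the alternatives. That total does not show how many genes of a list passed, which shifted more. With all pairs 35 cell cycle genes fell, and without the control MO, ERK3 MO1/2 or ERK3 MO3 pair 57, 12 and 12. The shares of all genes shifted as well. Copies of 1 sign were 62.4%, and 62.9% with the median over probe sets. With the level filter, which left out probe sets that never exceeded the overall median, the 959 came to 822. A constant of 16 also shrinks changes of genes that are bright in 1 culture and near the floor in the other. The fall of 959 to 498 is therefore no measure of dim genes alone. Genes near the floor, such as cplx1.L and abhd12.S with activin/RA, have changes that are less certain in size. Each fit that left out a pair rested on 2 pairs. The cause of these shifts was not tested.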

Other observations

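Metabolic and secretory genes outside the comparisons above moved in both directions. Of 25 glycosylation genes 0 rose and 5 (20%) fell (limma, 0 and 9 at an unadjusted p under 0.05). Besides man1c1.S and b4galnt1.L the genes that fell were galnt1.S, mgat2.S and b3gnt5.L, with changes of -0.9, -0.8 and -0.79. Of 29 genes of folding and secretion 5 rose and 1 fell, with ssr1.L, a subunit of the translocon-associated complex, at 9.72, 9.63 and 9.6 with activin/RA, against 8.54, 8.6 and 8.56 in untreated caps. Of 31 glycolysis genes 4 rose and 4 fell (12.9% each way). The glucose transporter gene slc2a1.L stood at 8.16, 7.73 and 8.0 with activin/RA, against 6.47, 5.09 and 5.98 in untreated caps (change 2.12 ± 0.19, adjusted p = 0.000698) and hk1.L, a hexokinase gene, at 6.81, 6.23 and 6.56 with activin/RA, against 6.45, 3.2 and 4.25 in untreated caps, while gpi.S fell by 0.77. dhcr7.L and dhcr7.S, which encode the last enzyme of cholesterol synthesis, rose by 3.67 and 1.48, and hmgcs1.S, an early enzyme of the same route, fell by 1.1. Of 32 respiratory chain genes 4 rose and 4 fell.

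Of 33 genes of heat shock and oxidation 6 rose (18.2%, against 9.71% of all genes) and 8 fell (24.2%, against 14.6%). Both copies of gclc, the catalytic subunit of the enzyme that starts glutathione synthesis, fell, gclc.S by 1.25 and gclc.L by 0.92. Of 17 genes of p53 and apoptosis 3 rose and 3 fell (17.6% each way). ccng1.S, the cyclin G1 gene, stood at 7.54, 7.54 and 7.3 with activin/RA, against 4.03, 4.05 and 4.92 in untreated caps (change 3.13 ± 0.24, adjusted p = 0.000363), and ccng1.L rose by 2.02. Of 30 chromatin and histone genes 4 rose (13.3%) and 6 fell (20%). lin28a.S, an RNA-binding regulator of early development, stood at 7.62, 6.64 and 6.94 with activin/RA, against 6.45, 4.51 and 5.46 in untreated caps, while eed.L, a Polycomb subunit gene, fell by 1.14.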
